A study of Mus musculus with 8 samples.

Results

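The genes described here are 40 genes of DNA replication and cell division, read from whole mouse skin. They were chosen by symbol from the 24612 genes of the deposited table as genes known to act in S phase and mitosis. The rule uses no measured value, but the genes were chosen with earlier results of these data known. All 40 were in the table and all 40 passed the filter on low values, which asked for 10 or more in 2 or more libraries and kept 23185 genes. By role they comprise 13 genes of S phase, 5 genes of the G1/S step and cell cycle transcription, and 22 genes of G2 and mitosis.

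RNA was sequenced from homogenised skin of C57BL/6J males, whose treatment began at 6 weeks and lasted 21 days. The PBS group (2 libraries, PBS 2 and PBS 3) received 0.1 mL phosphate-buffered saline under the skin, and the bleomycin group (3 libraries, Bleomycin 2, 3 and 4) received 0.1 units of bleomycin under the skin. The celastrol group (3 libraries, Celastrol 2, 3 and 5) received celastrol daily into the peritoneum, at a dose of either 1 or 2 mg/kg. Which of these doses each mouse had, and whether it was also given bleomycin, is not in the labels. The labels also do not state that each library came from its own mouse, so p-values measure only the spread between these libraries, which may be technical. Bleomycin breaks DNA and is used to scar mouse skin, and celastrol is a plant triterpenoid studied for anti-inflammatory effects.

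As background, a cell that enters division first loads the ring of Mcm2 to Mcm7 onto replication origins and makes deoxynucleotides. It then copies its DNA in S phase and separates the copies in mitosis under the control of cyclin-bound kinases. Genes of S phase are switched on by E2F factors at the G1/S step, and genes of mitosis later by the MuvB complex with Mybl2 and Foxm1. In skin most dividing cells lie in the basal epidermis and in growing hair follicles. A cell that stops to repair DNA damage raises inhibitors of these kinases through p53.

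Promoters of 4 of the genes are shown because promoters of S phase and mitotic genes differ in the motifs they hold. They are RefSeq sequences on GRCm38.p6, each 250 bases long, from 220 bases before the transcription start to 30 bases from it. Capitals mark an E2F motif (TTTGGCGC, TTTCGCGC, TTTCCCGC or TTTGCCGC), a cell cycle genes homology region, CHR (TTTGAA, with TTCGAA also counted, and with TTTAAA also counted), or a CCAAT box, each on either strand. Rrm1 and Mcm6 belong to S phase, Cdk1 and Ccnb2 to mitosis, and Mcm6 was chosen for display after its motifs were seen. The Rrm1 promoter lies at chr7:102441475-102441724 on the plus strand. The others are on the minus strand, Mcm6 at chr1:128359676-128359925, Cdk1 at chr10:69352883-69353132 and Ccnb2 at chr9:70421525-70421774.
Rrm1: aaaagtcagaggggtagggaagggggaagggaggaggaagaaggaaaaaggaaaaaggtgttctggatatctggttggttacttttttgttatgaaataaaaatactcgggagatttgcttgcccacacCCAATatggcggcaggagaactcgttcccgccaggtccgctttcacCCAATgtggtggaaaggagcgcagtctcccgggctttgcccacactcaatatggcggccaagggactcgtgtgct
Mcm6: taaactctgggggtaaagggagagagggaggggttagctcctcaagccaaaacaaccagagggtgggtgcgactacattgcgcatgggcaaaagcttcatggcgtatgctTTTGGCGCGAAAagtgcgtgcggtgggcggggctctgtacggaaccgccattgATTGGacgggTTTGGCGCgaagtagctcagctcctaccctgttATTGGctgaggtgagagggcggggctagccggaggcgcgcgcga
Cdk1: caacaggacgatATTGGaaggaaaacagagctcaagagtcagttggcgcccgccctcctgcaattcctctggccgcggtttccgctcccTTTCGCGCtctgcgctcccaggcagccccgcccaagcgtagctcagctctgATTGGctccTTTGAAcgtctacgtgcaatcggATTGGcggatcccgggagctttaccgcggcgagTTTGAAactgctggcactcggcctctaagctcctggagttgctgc
Ccnb2: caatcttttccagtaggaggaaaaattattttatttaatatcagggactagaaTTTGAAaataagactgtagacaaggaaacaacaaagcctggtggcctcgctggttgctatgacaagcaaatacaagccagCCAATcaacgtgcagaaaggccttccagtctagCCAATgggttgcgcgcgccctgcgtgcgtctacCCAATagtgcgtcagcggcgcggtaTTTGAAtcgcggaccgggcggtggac

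In the Ccnb2 promoter a CHR begins at positions -167 and 5, and CCAAT boxes begin at -87, -54 and -21, counted with 1 as the first transcribed base and -1 as the base before it. The Cdk1 promoter holds CHR letters at -71 and -15 and an E2F motif at -131. The Mcm6 promoter holds E2F motifs at -110, -106 and -47, of which the first pair overlap on opposite strands. The Rrm1 promoter holds CCAAT boxes at -91 and -45 and no letters of the other 2 motifs. Over the full 300-base windows of the table, 34 promoters of 32 of the 40 genes could be read, and 8 genes had no entry. CHR letters were in 18 of the 19 mitotic promoters (94.7%) and in 4 of the 12 S phase promoters (33.3%), against 28.8% of all 32851 promoters. E2F letters were in 6 of the 12 S phase promoters and in 1 of the 19 mitotic promoters, that of Cdk1, against 2.26% of all promoters. CCAAT boxes were in 9 of 12 and 17 of 19, against 37.4% of all. These matches describe the letters only and show no binding.

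Sequencing depth, estimated in units of 1000000 reads, ran from 14.9 to 37.1, with Celastrol 3 (14.9), Celastrol 2 (15.1) and Bleomycin 3 (18.5) the shallowest. Per the file headers, values are counts divided by a size factor per library. A single read was worth an estimated 0.689 in Bleomycin 2 to 1.69 in Celastrol 3. Of values under 1000 reads, only 58.5% to 66.9% per library lay near a whole number of such reads. Celastrol 2 stood apart from the other libraries on the first principal component, which held 32.7% of the variance over all genes. Fibroblast genes summed to 232785 or more in both PBS libraries and to at most 68743 in the other 6, and muscle genes summed to at most 527764 in PBS, to between 751425 and 992017 with bleomycin and to at least 1193942 with celastrol. In such whole tissue, fewer dividing cells and less RNA per cell cannot be told apart.

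Levels of the genes were read first, which describes them and does not test the cell cycle label. Divided by exon length in kb (GENCODE M21), the highest mean values over the 8 libraries were those of Pcna, the sliding clamp of DNA polymerase (705 per kb), of Mki67, which codes for the Ki-67 protein that coats mitotic chromosomes (639 per kb), and of Top2a, the topoisomerase that untangles them (335 per kb). The lowest were Ccne1 (11.8 per kb), which codes for cyclin E1, and Cdt1 (16 per kb), an origin licensing factor. Rrm1, the large subunit of ribonucleotide reductase, stood at 233 per kb, and Ccnb2, which codes for cyclin B2, at 69.3 per kb. Together the 40 genes took up between 0.0875% (PBS 3) and 0.17% (Bleomycin 3) of all values in a library. On mm10, Rrm1 (ENSMUSG00000030978.10) spans bases 102441695 to 102469771 of chromosome 7 on the plus strand, and Ccnb2 (ENSMUSG00000032218.7) spans bases 70407692 to 70421547 of chromosome 9 on the minus strand.

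**Figure D1:**
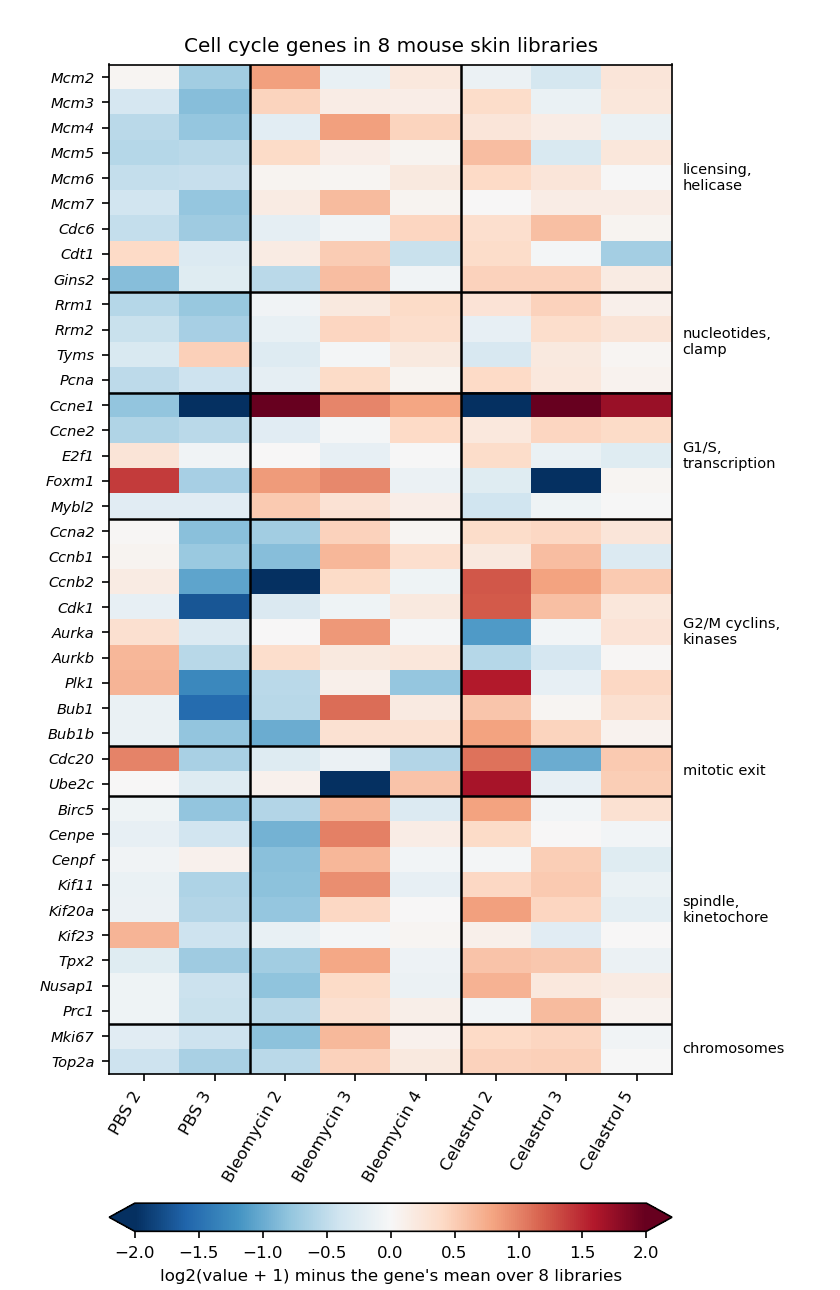
Log2 of value plus 1 for each of the 40 genes (rows, grouped by role) in each of the 8 libraries (columns), minus the gene's mean over the libraries; red is above and blue below the mean, and colours saturate at 2 log2 units. S phase genes are mostly blue in both PBS libraries, whereas mitotic genes are mostly blue in PBS 3 and Bleomycin 2 and red in Bleomycin 3 and Celastrol 2.

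Of the 13 S phase genes, 9 had higher values in all 3 bleomycin libraries than in both PBS libraries, among them 5 of the 6 helicase subunits Mcm2 to Mcm7, and none was lower in all. Over all genes tested, 12.0% were higher and 11.6% lower without overlap. Mcm2, Cdt1, Gins2 and Tyms overlapped. None of the 22 mitotic genes was separated in this way in either direction. No gene of the 40 passed limma's test at an adjusted p of 0.05, by which 0.453% of all genes tested were called higher, 0.224% lower and 0.677% in either direction. At an unadjusted p under 0.05, 8 of the 40 were higher and none lower, all 8 of them S phase genes, against 3.62% of all genes higher and 3.20% lower (6.82% in all).

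Rrm1 makes the building blocks of DNA together with Rrm2. Its values were 1665 and 1462 in PBS, 2345, 2831 and 3205 with bleomycin, and 2974, 3383 and 2653 with celastrol. The PBS libraries were the lowest and overlapped neither group. The fitted difference of bleomycin from PBS was 0.83 ± 0.19 (log2, SE), a 1.78-fold higher level with a 95% interval from 0.40 to 1.25 in log2, at an adjusted p of 0.101. Rrm2, the small subunit that is made in S phase, read 437 and 376 in PBS and 534, 804 and 762 with bleomycin, again without overlap, and differed by 0.76 ± 0.27 (adjusted p = 0.467).

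The helicase subunits differed from gene to gene in their spread. Mcm6 was at 689 and 691 in PBS and at 992, 987 and 1097 with bleomycin, a difference of 0.57 ± 0.20 (adjusted p = 0.451). Mcm4 read 657 and 563 in PBS and 826, 1691 and 1310 with bleomycin, 1.01 ± 0.29 higher (adjusted p = 0.23), with Bleomycin 2 closest to PBS. Without Bleomycin 2 its difference was 1.29 and passed limma's test (adjusted p = 0.0373). That fit called 0.567% of all genes higher and 0.432% lower. Mcm7 read 566 and 433 in PBS and 824, 1149 and 767 with bleomycin, 0.86 ± 0.24 higher (adjusted p = 0.226). It shares bases with Ap4m1 and Cops6 on the opposite strand, and the use of strand is not given in the sources used here. Mcm2 was the subunit whose groups overlapped, at 301 and 181 in PBS and 520, 264 and 337 with bleomycin (0.62 ± 0.39, adjusted p = 1). Summed over the 6 subunits, the values were 2690 and 2279 in PBS and 4034, 4815 and 4209 with bleomycin.

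Pcna read 1154 and 1241 in PBS and 1452, 2164 and 1712 with bleomycin, which did not overlap (0.55 ± 0.21, adjusted p = 0.544). Tyms, the thymidylate synthase, ran the other way within its spread, at 778 and 1333 in PBS and 805, 936 and 1103 with bleomycin. Cdc6, which loads the helicase, was at 131 and 110 in PBS and between 160 and 245 with bleomycin. Its partner Cdt1, at 64.0 and 39.7 in PBS and between 35.3 and 69.3 with bleomycin, did not separate the groups.

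Among the 5 genes of the G1/S step and transcription, Ccne1, Ccne2 and Mybl2 were higher with bleomycin than with PBS without overlap. Over all genes, 12.0% were higher and 11.6% lower in this way. None of the 5 passed limma's test. Ccne2, which codes for cyclin E2, partner of Cdk2 at S phase entry, read 207 and 215 in PBS and 266, 303 and 410 with bleomycin. Ccne1 was close to its detection limit, with values of 6.95 and 0 in PBS, 60.6, 26.1 and 22.8 with bleomycin and 0, 89.4 and 44.8 with celastrol. Its fitted difference of 3.60 ± 1.82 was the highest of the 40 (adjusted p = 0.859) and depends on the pseudocount of 1, since PBS 3 is listed at 0. E2f1, which switches on S phase genes, lay between 100 and 154 in all 8 libraries.

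**Figure D2:**
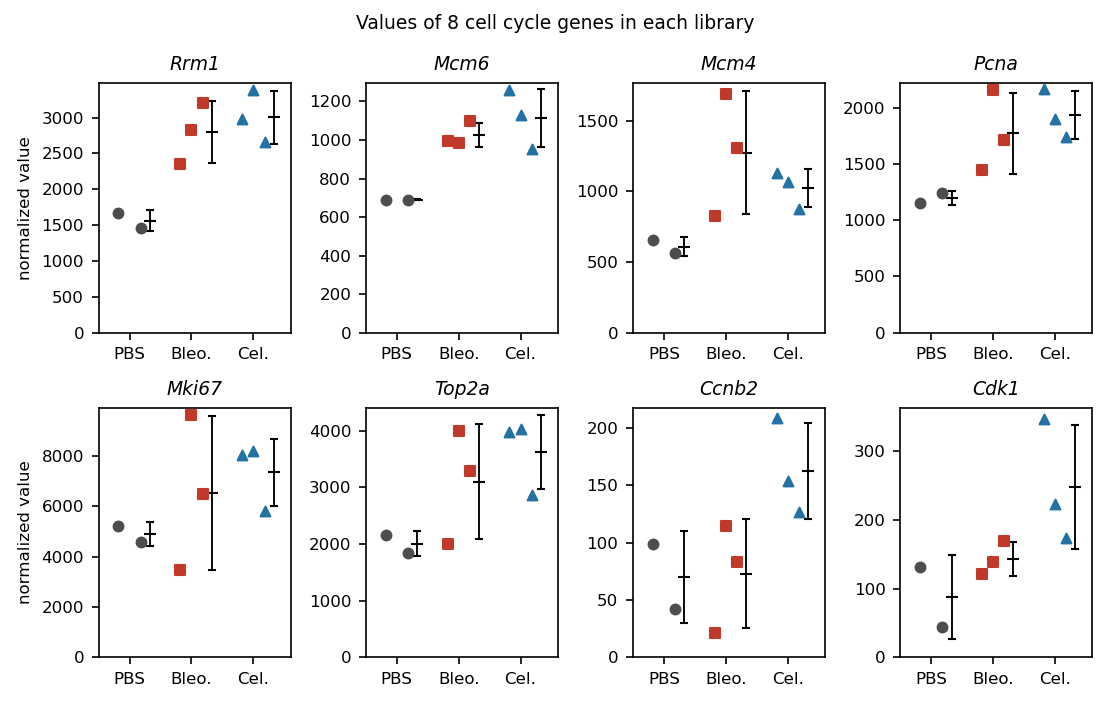
Deposited normalized values (linear axis from 0) of 4 S phase genes (top) and 4 mitotic genes (bottom) in each library; circles are PBS, squares bleomycin and triangles celastrol, from left to right by replicate number, and the black bars are the group mean ± SD (n = 2, 3 and 3). For Rrm1, Mcm6, Mcm4 and Pcna both PBS libraries lie under all others. For Mki67, Top2a, Ccnb2 and Cdk1 a bleomycin library lies within or under the PBS values.

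Most mitotic genes described here differed widely among the bleomycin libraries. Mki67 read 5226 and 4571 in PBS and 3468, 9599 and 6481 with bleomycin, so that Bleomycin 2 lay under and Bleomycin 3 above both PBS libraries (0.30 ± 0.34, adjusted p = 1). The difference was -0.044 without Bleomycin 3. Top2a read 2162 and 1848 in PBS and 1994, 3994 and 3294 with bleomycin (0.57 ± 0.28, adjusted p = 0.819). Ccnb2 read 98.8 and 41.9 in PBS and 21.3, 115 and 83.0 with bleomycin, with the lowest of all 8 values in Bleomycin 2 (-0.12 ± 0.75, adjusted p = 1). Ccnb1, the cyclin B1 gene, had 289 and 167 in PBS and 154, 444 and 353 with bleomycin (0.40 ± 0.49, adjusted p = 1). Cdk1, the kinase that both cyclins activate to start mitosis, had 131 and 44.1 in PBS and 121, 139 and 169 with bleomycin (0.88 ± 0.54, adjusted p = 0.997). Cdc20, which activates the ligase that ends mitosis, had the lowest fitted difference of the 40, -0.49 ± 0.79 (adjusted p = 1), from 122 and 38.6 in PBS and 51.0, 56.2 and 40.4 with bleomycin.

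Of the 9 genes of the spindle, the kinetochore and cytokinesis, 8 were lowest in Bleomycin 2 and highest in Bleomycin 3 among the bleomycin libraries. The exception was Kif23, a kinesin of cytokinesis, at 480, 517 and 546 with bleomycin against 848 and 396 in PBS. Cenpe, the kinetochore motor, read 764 and 659 in PBS, 446, 1716 and 946 with bleomycin and 1121, 860 and 822 with celastrol. Kif11, the motor that pushes the spindle poles apart, read 889 and 634 in PBS, 552, 1848 and 865 with bleomycin and 1293, 1402 and 883 with celastrol. Tpx2, which nucleates spindle microtubules, read 531 and 383 in PBS, 385, 1068 and 583 with bleomycin and 929, 911 and 576 with celastrol. In all 3 genes Bleomycin 3 was the highest library, and Bleomycin 2 was the lowest for Cenpe and Kif11 and just above PBS 3 for Tpx2. Bub1, a kinase of the spindle checkpoint, read 186 and 69.5 in PBS, 138, 443 and 231 with bleomycin and 300, 209 and 255 with celastrol. Plk1, a kinase needed at several steps of mitosis, was higher in Celastrol 2 (184) and in PBS 2 (98.1) than in the other 6 libraries, which lay between 24.3 and 81.1. Of the 9, none separated bleomycin from PBS (12.0% of all genes were higher and 11.6% lower) and none separated celastrol from bleomycin (4.13% and 4.59%). Without overlap, 5 were higher with celastrol than with PBS, against 13.2% of all genes higher and 13.7% lower.

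As medians, the fitted difference between bleomycin and PBS was 0.36 over the 40 genes, 0.66 over the S phase genes and 0.28 over the mitotic genes, against -0.000715 over all genes tested. Of the 40, 32 were above 0, as were 49.9% of all genes tested. In all, 12 of the 40 were higher without overlap, as were 12.0% of all genes tested, and none was lower, against 11.6%. The count of 12 was 24 without Bleomycin 2 and 25 without PBS 2, and the lower count was 6 without PBS 3 and 1 without PBS 2. Leaving out a library can only raise or keep such a count, since fewer values have to separate. The share over all genes with a library left out is not given here, so the higher counts are no result about these genes. The median over the 40 genes was 0.10 without Bleomycin 3, 0.155 without PBS 3, 0.63 without PBS 2 and 0.65 without Bleomycin 2. Leaving out any single library kept the S phase median between 0.60 and 0.78. The mitotic median was -0.0107 without Bleomycin 3 and 0.61 without Bleomycin 2. Whether the S phase and mitotic genes differed from each other was not tested.

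**Figure D3:**
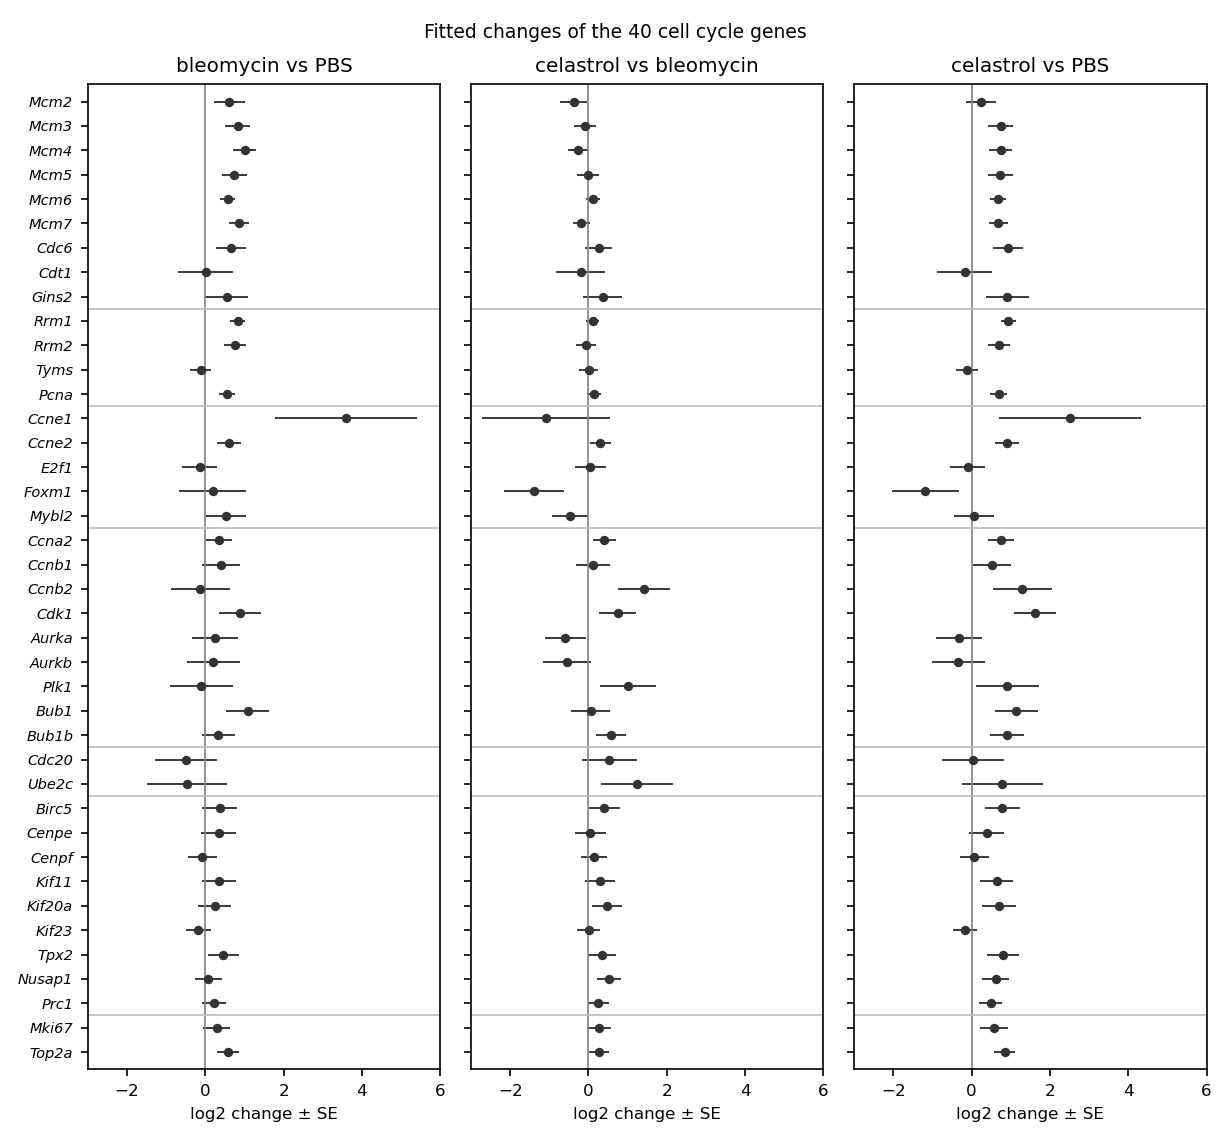
Fitted log2 differences ± SE (limma on log2 of value plus 1) of the 40 genes for bleomycin against PBS, celastrol against bleomycin and celastrol against PBS; grey lines part the roles in the order of the heat map. For bleomycin against PBS the helicase subunits lie between 0.57 and 1.01, and the points for celastrol against bleomycin lie on both sides of 0.

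No S phase gene separated celastrol from bleomycin skin, where 4.13% of all genes were higher and 4.59% lower without overlap. Rrm1 averaged 2794 ± 431 (SD, n = 3) with bleomycin and 3003 ± 366 (SD, n = 3) with celastrol, and the difference of 0.11 ± 0.17 had a 95% interval from -0.27 to 0.49. Its sign turned when libraries were scaled to the same sum (-0.0135), weighted (-0.0733), or with Bleomycin 2 left out (-0.0112). No gene of the 40 passed the test by limma (lowest adjusted p 0.975), and the test called 0% of all genes. At an unadjusted p under 0.05 the count was 0 of the 40, against 1.38% of all genes higher, 2.49% lower and 3.87% in either direction. The 95% intervals remained wide, from -0.0679 to 2.90 for Ccnb2 and from -0.41 to 0.96 for Mki67.

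Among the mitotic genes, Ccnb2 and Cdk1 were higher in all 3 celastrol libraries than in all 3 bleomycin libraries. Ccnb2 was at 208, 154 and 127 with celastrol, above its highest bleomycin value of 115, a difference of 1.41 ± 0.67 (adjusted p = 0.975), which was 0.70 without Bleomycin 2. Cdk1 was at 346, 223 and 173 with celastrol, against a highest bleomycin value of 169, a difference of 0.74 ± 0.48 (adjusted p = 0.975). Celastrol 5 stood only just above Bleomycin 4 for that gene. In the other direction, Mybl2, the transcription factor that joins the MuvB complex, read 119, 101 and 90.5 with bleomycin and 62.4, 77.9 and 82.2 with celastrol. Aurkb, a kinase of chromosome alignment, read 62.7, 56.2 and 57.3 with bleomycin and 32.8, 38.8 and 49.8 with celastrol. These 2 higher and 2 lower genes of 40 compare with 4.13% and 4.59% of all genes tested. The higher count was 9 without Bleomycin 3, 4 without Bleomycin 4, 4 without Celastrol 3 and 5 without Celastrol 5. The lower count was 4 without Bleomycin 2, without Bleomycin 4 or without Celastrol 5. These counts, too, can only rise or stay when a library is left out, and no matching share over all genes is given.

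Foxm1, the factor that drives genes of G2 and mitosis, had the lowest fitted difference between celastrol and bleomycin, -1.38 ± 0.77 (adjusted p = 0.975). Its values were 138, 148 and 69.8 with bleomycin and 64.0, 15.2 and 77.9 with celastrol, so that Celastrol 5 exceeded Bleomycin 4. PBS 2 held the highest Foxm1 value of all, 202, and PBS 3 held 47.4. Without Celastrol 3 the difference was -0.66. Nusap1 and Bub1b, of the spindle and of the spindle checkpoint, were higher by 0.53 ± 0.31 and 0.57 ± 0.38 (adjusted p = 0.975 for both) with overlapping groups. Mki67 (0.28 ± 0.31, adjusted p = 0.978), Top2a (0.27 ± 0.25, adjusted p = 0.975), Pcna (0.14 ± 0.19, adjusted p = 0.984) and Rrm2 (-0.06 ± 0.24, adjusted p = 0.996) did not pass either. Over the 40 genes the median difference was 0.13, with 28 above 0 (46.3% of all genes were), over the S phase genes it was -0.0114 and over the mitotic genes 0.31, against -0.0351 over all genes tested. The mitotic median was -0.00453 without Bleomycin 2.

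Celastrol skin was then compared with PBS skin. Of the 13 S phase genes, 10 were higher in all 3 celastrol libraries than in both PBS libraries, and so were 12 of the 22 mitotic genes, while the other 10 overlapped. With Ccne2 this made 23 of the 40, against 13.2% of all genes tested, and none was lower, against 13.7%. The lower count was 5 without PBS 3 and 1 without PBS 2 or without Celastrol 2, where fewer values have to separate and no share over all genes is given. Rrm1 rose in celastrol relative to PBS skin and was the only gene of the 40 to pass limma's test (1.91-fold, 0.94 ± 0.19, adjusted p = 0.0442), where 0.824% of all genes were called higher, 0.543% lower and 1.37% in either direction. At an unadjusted p under 0.05, 13 of the 40 were higher and none lower, against 6.13% and 5.91% of all genes. The call of Rrm1 was lost in 14 of 19 alternatives, with adjusted p between 0.027 and 0.411, while the difference stayed between 0.77 and 1.03. Among the losses were the fits that left out any library other than Bleomycin 2. Calls over all genes also fell in several alternatives, from 191 higher and 126 lower in the main fit. They were 8 and 11 without the trend, and 25 and 14 without Celastrol 5. With library weights, where the call of Rrm1 was lost as well, they were 231 and 167. Both comparisons with PBS rest on the same 2 PBS libraries.

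Cdk1 had the highest celastrol value relative to PBS among genes detected in every library, at 346, 223 and 173 against 131 and 44.1 (1.63 ± 0.54, adjusted p = 0.23). Ccnb2 lay at 208, 154 and 127 against 98.8 and 41.9 (1.29 ± 0.75, adjusted p = 0.549). Top2a lay at 3978, 4022 and 2868 against 2162 and 1848 (0.84 ± 0.28, adjusted p = 0.235). Mki67 lay at 8030, 8209 and 5812 against 5226 and 4571 (0.57 ± 0.34, adjusted p = 0.569). Each of these 4 was free of overlap, and in each the deepest celastrol library, Celastrol 5, was the lowest of its group. Ccnb1 overlapped, with 318, 430 and 230 against 289 and 167 (0.52 ± 0.49, adjusted p = 0.737).

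On the S phase side, Mcm6 lay at 1257, 1132 and 954 with celastrol against 689 and 691 (0.68 ± 0.20, adjusted p = 0.172), and Pcna at 2170, 1903 and 1742 against 1154 and 1241 (0.69 ± 0.21, adjusted p = 0.184). Rrm2 lay at 529, 761 and 714 against 437 and 376 (0.70 ± 0.27, adjusted p = 0.325). Mcm2 overlapped, at 270, 229 and 345 against 301 and 181 (0.25 ± 0.39, adjusted p = 0.853), and its sign turned without PBS 3 (-0.116). Foxm1 had the lowest fitted difference, -1.18 ± 0.86 (adjusted p = 0.643), which was -0.15 without PBS 2. The median difference of celastrol from PBS was 0.70 over all 40 genes, 0.70 over the S phase genes and 0.67 over the mitotic genes, against -0.0657 over all genes tested, and 33 of the 40 were above 0 against 45.6% of all genes.

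Ranked within libraries, the 40 genes did not follow the groups alone. PBS 3 held the lowest value for 16 of the 40 and Bleomycin 2 for 10, all 10 of them mitotic. The highest value was in Bleomycin 3 for 14 genes and in Celastrol 2 for 13. Bleomycin 4 and Celastrol 5 held the highest value for none. Over all genes tested, the highest value was in Bleomycin 3 for 13.8% and in Celastrol 2 for 17.9%. It was in Bleomycin 4 for 5.68% and in Celastrol 5 for 11.7%. Of the 23185 genes tested, PBS 3 held the lowest value for 3553 and Bleomycin 2 for 2111. The median deviation of the S phase genes from their own means was -0.47 and -0.66 in PBS, -0.0744, 0.20 and 0.20 with bleomycin, and 0.34, 0.19 and 0.10 with celastrol, so both PBS libraries lay under the other 6. For the mitotic genes it was -0.0829 and -0.63 in PBS, -0.64, 0.43 and 0.0385 with bleomycin, and 0.51, 0.42 and 0.069 with celastrol. Bleomycin 2 thus combined S phase genes above both PBS libraries with mitotic genes at the level of PBS 3.

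**Figure D4:**
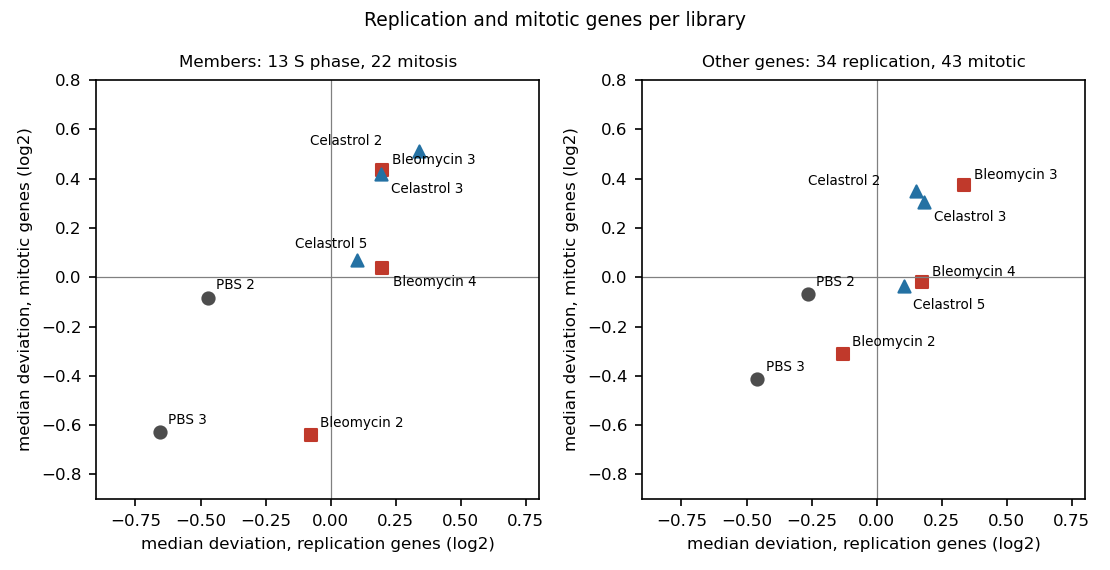
Median log2 deviation from each gene's own mean, of replication genes (horizontal) and mitotic genes (vertical), with each point a library; left, the 13 S phase and 22 mitotic genes of the 40, and right, 34 other replication and 43 other mitotic genes. On the left Bleomycin 2 lies at -0.0744 and -0.64, apart from the other 2 bleomycin libraries, and on the right it lies lowest of the bleomycin libraries on both axes.

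The 3 libraries with the highest mitotic medians, Celastrol 2, Bleomycin 3 and Celastrol 3, were also the 3 shallowest. Without these 3 libraries the S phase median was 0.68 for bleomycin against PBS and 0.65 for celastrol against PBS. The mitotic median without them was -0.0107 and 0.35. The part of depth in the mitotic values was not tested. Keratins and alarmins of stressed epidermis also separated treated from PBS skin, as 9 (bleomycin) and 10 (celastrol) of the 13 S phase genes did. Of these markers 7 of 7 were higher without overlap in both comparisons, and 1 with bleomycin and 4 with celastrol passed limma's test. Over all genes, 12.0% were higher without overlap with bleomycin and 13.2% with celastrol. Limma called 0.453% and 0.824% of all genes higher. They summed to 9295 and 2183 in PBS, 18058, 154783 and 25828 with bleomycin, and 97412, 71470 and 50763 with celastrol. In Bleomycin 2 this sum lay above both PBS libraries and under all other bleomycin and celastrol libraries. The mitotic median was the lowest of all 8 in Bleomycin 2. Krt6a, a keratin of wounded and thickened epidermis, read 5593 in Bleomycin 2 and 39537 in Bleomycin 3, and S100a8 was listed at 0 in PBS 3. Summed basal keratinocyte genes overlapped between groups, from 143995 to 197737 in PBS, from 152152 to 234651 with bleomycin and from 158215 to 212243 with celastrol. Of the genes of the growing hair follicle, 6 of 11 were tested, with sums from 341 to 910 and Krt25 listed at 0 in 6 libraries. The part of stressed epidermis, or of the share of epidermal cells, in the S phase and mitotic values was not tested.

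Other genes of the same processes were read for comparison from lists of textbook members. Among 34 further replication genes, 11 were higher without overlap with bleomycin than with PBS and none lower, with a median difference of 0.60, and 18 were higher and 1 lower with celastrol than with PBS. The shares over all genes were 12.0% higher and 11.6% lower with bleomycin, and 13.2% and 13.7% with celastrol. Clspn, which codes for the checkpoint adaptor claspin, read 260 and 316 in PBS, 376, 828 and 572 with bleomycin and 592, 668 and 448 with celastrol (0.97 ± 0.34 against PBS in both, adjusted p = 0.459 and 0.274). Among 43 further mitotic genes, 4 were higher and 2 lower with bleomycin, and 17 were higher and none lower with celastrol, with medians of 0.19 and 0.47. The bleomycin count was below the share over all genes. Cks2, a small subunit of mitotic kinases, read 43.7 and 14.3 in PBS, 52.3, 78.4 and 43.4 with bleomycin and 176, 149 and 107 with celastrol (2.44 ± 0.67 for celastrol against PBS, adjusted p = 0.14). Kif15, a spindle motor, read 435 and 272 in PBS and 1097, 834 and 585 with celastrol (1.24 ± 0.34, adjusted p = 0.14). None of these genes passed limma's test in any comparison.

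Genes that arrest the cycle were read in the same libraries. Of 10 inhibitors and arrest genes listed, 9 were tested, of which 5 were above 0 and 4 below with bleomycin, and likewise with celastrol. Against PBS, 3 were higher and 2 lower without overlap with bleomycin, and 3 higher and none lower with celastrol. Over all genes, 12.0% were higher and 11.6% lower with bleomycin, and 13.2% and 13.7% with celastrol. Counts among so few genes are given as description only. Ccng1, the cyclin G1 gene and a target of p53, rose in both treated groups, from 5443 and 5849 in PBS to 11323, 10982 and 12983 with bleomycin (1.06 ± 0.18, adjusted p = 0.0317) and to 12903, 14106 and 18278 with celastrol (1.40 ± 0.18, adjusted p = 0.00742). For bleomycin against PBS the call was lost in 8 of 19 alternatives, among them those without PBS 2, PBS 3, Bleomycin 3 or Bleomycin 4. For celastrol against PBS it was lost in 3 of 19, namely without the trend, without PBS 3 and without the 3 shallowest libraries. Calls over all genes for bleomycin against PBS fell from 105 higher and 52 lower to 26 and 7 without Bleomycin 3. For celastrol against PBS they were 8 and 11 without the trend. Btg2, an antiproliferative gene that p53 also activates, read 696 and 591 in PBS, 1566, 1104 and 981 with bleomycin and 1100, 1193 and 1003 with celastrol, without overlap (0.89 ± 0.24 and 0.77 ± 0.24, adjusted p = 0.175 and 0.194). Cdkn1a, which codes for the kinase inhibitor p21, was at 1214 and 542 in PBS, at 2524, 1258 and 1500 with bleomycin and at 1866, 1184 and 1903 with celastrol (1.05 ± 0.38 and 0.99 ± 0.38, adjusted p = 0.499 and 0.321). The 2 lower genes code for kinase inhibitors. Cdkn1b (p27) read 3047 and 4094 in PBS and 2421, 2640 and 2647 with bleomycin (-0.46 ± 0.27, adjusted p = 0.989), and Cdkn2c (p18) read 698 and 680 in PBS and 642, 621 and 488 (-0.25 ± 0.30, adjusted p = 1). Bleomycin 2, with a mitotic median deviation of -0.64, held the highest value of Cdkn1a and of Btg2. PBS 3, with a mitotic median deviation of -0.63, held the lowest value of both genes. Ccng1 was highest in Celastrol 5. A link between arrest genes and mitotic genes was not tested.

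**Figure D5:**
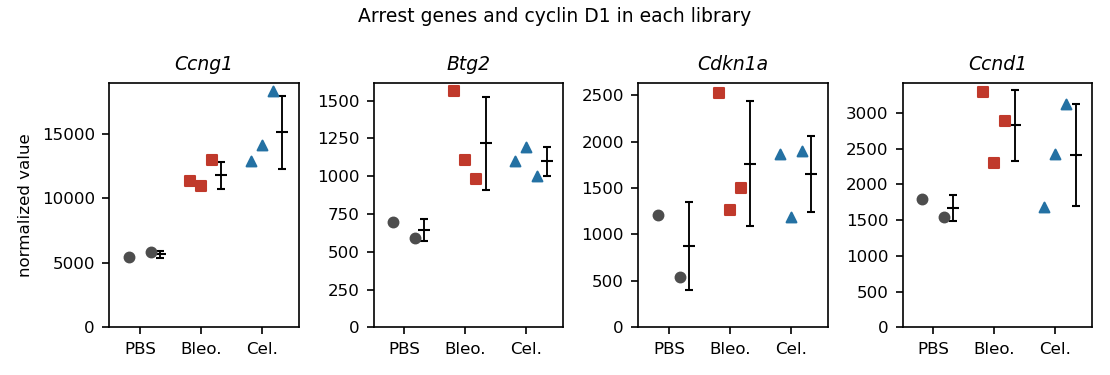
Deposited normalized values (linear axis from 0) of Ccng1, Btg2, Cdkn1a and Ccnd1 in each library; circles are PBS, squares bleomycin and triangles celastrol, from left to right by replicate number, with the group mean ± SD in black (n = 2, 3 and 3). Ccng1 lies at 5443 and 5849 in PBS and at 10982 or more in the other 6 libraries, and Btg2 is highest in Bleomycin 2.

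Upstream of the G1/S step, 7 G1 cyclins and kinases and 14 genes of the RB, E2F and DREAM groups were tested, and none passed. Ccnd1, the cyclin D1 gene, read 1794 and 1543 in PBS and 3290, 2295 and 2889 with bleomycin, without overlap, and 1687, 2421 and 3119 with celastrol, where Celastrol 2 lay within PBS. Rbl1, which codes for the pocket protein p107, read 700 and 701 in PBS and between 903 and 1193 in the other 6 libraries.

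The size of the errors differed between the roles. The median SD within groups was 0.28 in log2 for the S phase genes and 0.56 for the mitotic genes, against 0.54 over all genes tested. Several low values rest on few reads. Ube2c, a ubiquitin-conjugating enzyme of mitotic exit, was at 5.54 in Bleomycin 3, where a read was worth an estimated 1.31. It shares bases with the muscle gene Tnnc2 on the opposite strand. Of the 40 genes, 13 share bases with another gene of the table, 9 of them with a gene on the opposite strand, Rrm1 with Gm45399 on its own strand (mean value 79.9). Reads of such pairs cannot be told apart without knowing how they were assigned.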

How the data were processed

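Total RNA of skin homogenates was sequenced in 8 libraries. The authors deposited a normalized signal per gene, counts divided by DESeq2 size factors (poscounts) per the file headers. Tools named in the submitters' processing notes are STAR 2.7.3a, Partek 10.0.22 and DESeq2, with mm10 as the build. The counter, annotation and strand setting are not given in the sources used here. Of values under 1000 reads, leaving out those at or near 0, between 58.5% and 66.9% per library lay within 0.03 reads of a whole number, so counts were not recovered and depth was estimated from the value of a read.

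Differences were tested with limma 3.58.1 in R 4.3.3 (lmFit, eBayes with a mean-variance trend), two-sided, on log2 of the value plus 1. All 8 libraries entered a single fit without covariates, and p was adjusted by Benjamini-Hochberg over 23185 genes (threshold 0.05). The filter removed 1427 genes. The script was tested on simulated data.

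The 40 genes and all lists were chosen with earlier results of these data known. Named genes were Rrm1, Ccnb2, Mki67, Top2a, Pcna, Cdk1, Ccnb1, Mcm2 and Rrm2, per comparison the 5 with the smallest p and the highest and lowest difference, and up to 3 of each other list. Any of the 40 could be named for its level. Alternatives were other pseudocounts (0.5 and 10), filters, scalings, library weights, a replicate block, fits without the trend or of 2 groups alone, and leaving out libraries.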

Additional observations from a re-analysis of the deposited data

How the results depend on the processing

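With each library left out in turn, between 0 and 1 of the 40 genes passed for bleomycin against PBS (main value 0; Mcm4 without Bleomycin 2), and between 0 and 1 for celastrol against PBS. For bleomycin against PBS, limma called 0.567% of all genes higher and 0.432% lower without Bleomycin 2, and 0.0655% and 0.00437% without Bleomycin 4. For celastrol against PBS it called 1.09% and 0.737% without Bleomycin 2, and 0.109% and 0.061% without Celastrol 5. With library weights 2 passed limma's test for bleomycin, Rrm1 (adjusted p = 0.00846) and Mcm4 (adjusted p = 0.0265). There limma called 1.66% of all genes higher and 1.41% lower. For celastrol against PBS 0 passed with only the libraries of the 2 groups, library weights, the same sum, the same upper quartile, no trend, or without Bleomycin 3, Celastrol 2 and Celastrol 3, an alternative chosen after seeing the data. Over all genes, 0.824% were called higher and 0.543% lower in the main fit for celastrol against PBS. These shares were 0.444% and 0.242% with only the 2 groups, and 0.996% and 0.72% with weights. They were 0.598% and 0.594% with the same sum, and 0.785% and 0.569% with the same upper quartile. Without the trend they were 0.0345% and 0.0474%. The cause of these losses was not tested. Replicate numbers were not used as pairs in the main fit. Correlations of deviations ran from -0.0049 to 0.20 for same-numbered libraries and from -0.2 to 0.12 for differently numbered ones. Deviations of the only 2 PBS libraries mirror each other, so these values cannot settle whether the numbers pair the libraries. The fit with a replicate block kept only numbers that recur across groups, so Bleomycin 4 and Celastrol 5 were left out of it. In that fit 0 of the 40 passed and Rrm1 was at 1.02 (limma, adjusted p = 0.108). For celastrol against PBS, 40 genes in all were called in place of 317. The parts of the block and of the smaller number of libraries in this fall cannot be told apart. Under the same-sum scaling the median of all genes was -0.156 for celastrol against bleomycin and -0.171 against PBS.

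The median over the 40 genes for bleomycin against PBS lay between 0.10 and 0.65 with a library left out. Genes without overlap numbered 12 to 25 higher and 0 to 6 lower in that comparison, 2 to 9 higher and 2 to 4 lower for celastrol against bleomycin, and 0 to 5 lower for celastrol against PBS. Such counts can only rise or stay when a library is left out, and the matching shares over all genes are not given. Celastrol against bleomycin gave 1 higher and 4 lower with the same sum, 1 higher with the same upper quartile, and 12 higher and 5 lower without the 3 shallow libraries, where celastrol against PBS gave 3 lower. Without the shallow libraries, Celastrol 5 is the only celastrol library, so groups separate easily. The share over all genes in that setting is not given, and no difference can be read from its counts.

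Single genes changed sign as follows. For bleomycin against PBS, Ccnb2 was 0.211 with weights and -0.729 to 0.594 with a library left out, Mki67 -0.044 without Bleomycin 3 or the shallow libraries and up to 0.69, Cdc20 -1.31 to 0.328, and Ccnb1 -0.000249 to 0.847. For celastrol against bleomycin, Rrm1 was -0.0733 with weights, -0.0135 with the same sum, -0.0474 without the shallow libraries and -0.0112 to 0.214 with a library left out. Ccnb1 was -0.161 with weights, -0.022 without the shallow libraries and -0.325 to 0.435. Rrm2 was 0.162 without the shallow libraries and -0.246 to 0.097, Mki67 -0.119 to 0.615 and Top2a -0.0189 to 0.482. Btg2 was 0.0511 with weights and -0.263 to 0.0737, Cdkn1a 0.0771 with weights and -0.269 to 0.232, and Clspn 0.173 with the block and -0.293 to 0.275. For celastrol against PBS, Mcm2 was -0.116 to 0.612.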
